A study of Mus musculus with 2 samples.

Results

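Collagen genes were followed across the cell classes of mouse periodontal tissue in a pair of single-cell RNA-sequencing libraries. Of the 31053 genes in the count tables, 44 carry a symbol made of Col, a number, the letter a and a number, and all 44 had at least 1 unique molecular identifier (UMI, the tag that marks 1 captured transcript) in the kept cells of each library. They comprise 11 fibrillar, 8 basement membrane, 9 FACIT (fibril-associated), 3 network-forming, 6 beaded-filament, 1 anchoring-fibril and 4 transmembrane collagen genes and 2 others. The control library came from untreated wild-type C57BL/6 mice aged 8 weeks. The LIP library came from mice of the same strain, genotype and age with ligature-induced periodontitis, in which a thread tied around a tooth retains bacteria and leads to gum inflammation and bone loss, taken 7 days after ligature placement. Gingival tissue and the surface of the alveolar bone were curetted and the cells released with collagenase, and the LIP library pools 5 mice. The number of control mice is not given in the sources used here. With 1 library for each condition there is no replicate, so no test between conditions was possible, and every interval below covers counting error only.

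Collagens are secreted proteins whose chains wind into rope-like helical trimers. Fibrillar types I and III form the tensile fibrils of bone, gingiva and periodontal ligament, and types V and XI are minor partners that sit within those fibrils and limit their width. FACIT collagens such as types XII and XIV lie on fibril surfaces, type VI builds beaded microfilaments around cells, and type IV forms the sheet of basement membranes under epithelium and around vessels, nerves and muscle, where types XV and XVIII are also found. Type VII anchors epithelium to the connective tissue, and type XVII spans the membrane of basal keratinocytes in hemidesmosomes. In the periodontium, fibroblasts keep a dense type I and III meshwork that turns over rapidly, while osteoblasts deposit type I collagen as the organic part of bone.

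Several members lie next to each other in the genome. In GRCm38, *Col4a1* and *Col4a2* lie head to head on chromosome 8 on opposite strands, with starts 21 bases apart and 22 bases of overlap. *Col4a3* with *Col4a4* (chromosome 1, 71 bases apart) and *Col4a5* with *Col4a6* (chromosome X, 1308 bases apart) have the same arrangement. *Col3a1* and *Col5a2* lie 24614 bases apart on opposite strands of chromosome 1, and *Col6a1* and *Col6a2* lie 85161 bases apart on the same strand of chromosome 10. Promoter windows from 250 bases before to 50 bases after the start (RefSeq, GRCm38.p6) were found for 35 of the 44 genes. The windows of *Col4a1* and *Col4a2*, which overlap, and of *Col1a2* and *Col3a1*, whose levels parted in osteoblast-like cells, are shown 5′ to 3′ on the strand of the gene. Capitals mark matches to the TATA box letters TATAAA, to the CCAAT box letters CCAAT and to the GC box letters GGGCGG, on either strand.
*Col4a1* (chr8:11312777-11313076, minus strand): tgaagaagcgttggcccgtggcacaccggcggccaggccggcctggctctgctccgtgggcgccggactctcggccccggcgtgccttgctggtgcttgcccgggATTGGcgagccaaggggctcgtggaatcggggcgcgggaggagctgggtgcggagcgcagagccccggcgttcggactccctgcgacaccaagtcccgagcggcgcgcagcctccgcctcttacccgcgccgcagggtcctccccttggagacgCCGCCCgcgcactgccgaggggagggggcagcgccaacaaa
*Col4a2* (chr8:11312555-11312854, plus strand): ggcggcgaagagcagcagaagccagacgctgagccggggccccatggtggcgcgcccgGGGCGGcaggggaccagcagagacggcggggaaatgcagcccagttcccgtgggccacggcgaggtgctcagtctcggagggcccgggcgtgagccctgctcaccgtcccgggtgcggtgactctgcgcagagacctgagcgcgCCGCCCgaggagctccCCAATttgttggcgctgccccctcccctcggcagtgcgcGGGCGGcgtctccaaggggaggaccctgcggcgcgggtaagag
*Col1a2* (chr6:4505368-4505667, plus strand): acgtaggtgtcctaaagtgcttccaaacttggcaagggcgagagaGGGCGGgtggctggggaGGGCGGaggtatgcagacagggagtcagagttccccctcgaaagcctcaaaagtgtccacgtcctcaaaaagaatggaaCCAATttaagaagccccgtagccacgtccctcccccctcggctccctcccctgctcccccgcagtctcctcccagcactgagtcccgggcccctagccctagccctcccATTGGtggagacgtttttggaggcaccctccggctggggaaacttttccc
*Col3a1* (chr1:45311288-45311587, plus strand): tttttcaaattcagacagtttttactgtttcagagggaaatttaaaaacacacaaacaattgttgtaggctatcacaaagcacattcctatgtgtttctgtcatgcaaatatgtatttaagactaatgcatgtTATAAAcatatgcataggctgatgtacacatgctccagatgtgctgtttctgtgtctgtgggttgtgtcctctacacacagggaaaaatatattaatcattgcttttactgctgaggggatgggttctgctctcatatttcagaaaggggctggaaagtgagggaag
The *Col4a1* and *Col4a2* windows held no TATAAA, 1 match to CCAAT each, and 1 and 3 matches to GGGCGG. The *Col1a2* window held 2 matches to CCAAT and 2 to GGGCGG, while the *Col3a1* window held 1 TATAAA, 117 bases before the start, and neither of the other motifs. Over the 38 collagen windows, GGGCGG was present in 60.5%, against 35.7% of all 32851 windows, CCAAT in 34.2% against 37.4%, and TATAAA in 13.2% against 13.6%.

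After removing barcodes with under 200 or over 7500 genes, over 60000 UMIs or over 10% mitochondrial UMIs, the control library held 883 cells and 13407122 UMIs (median 10845 per cell) and the LIP library held 936 cells and 10560109 UMIs (median 5595). The libraries shared 2 barcodes, which marked 1 kept control cell and 2 kept LIP cells. Clusters were formed and named with the 44 collagen genes left out of the clustering features, the marker lists and the leading genes, so the names below do not rest on them. The fibroblast-like class (101 control and 26 LIP cells) was led by *Mfap4*, *Clec3b*, *Dpt* and *Pi16* and held 13 markers of its list. The osteoblast-like class (20 and 31 cells) was led by the bone matrix genes *Ibsp*, *Bglap* and *Bglap2* and by *Mmp13*. It held 9 markers of its own list and 9 of the fibroblast list, with 6 and 0 of these among its 10 leading genes, and the list does not separate osteoblasts from ligament cells of the bone surface.

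Collagen levels are UMIs of a gene per 1000000 UMIs of the class (CPM). In 3′ libraries each transcript gives 1 UMI whatever its length, so levels of different genes were compared as transcripts, with no division by length. Neutrophils, which are not known to make fibrillar collagen, gave the level in cells that should lack these transcripts. The 44 genes together reached 53.6 CPM in 52 control and 199 CPM in 324 LIP neutrophil-like cells, and 44.2 and 35.9 CPM in barcodes with under 200 genes. Those 161 control and 73 LIP barcodes held 972621 and 584160 UMIs. They were thus not near-empty, and their values are not read as background. In LIP neutrophil-like cells, *Col1a1* stood at 61.7 CPM (100 UMIs). *Col1a1* to *Col1a2* was 1.92 (interval 1.36 to 2.74) there and 1.88 in LIP osteoblast-like cells, which held most of the collagen UMIs of that library. *Col3a1* to *Col1a1* was further apart, at 0.51 in LIP neutrophil-like and 0.215 in LIP osteoblast-like cells. Where these transcripts came from was not tested. Levels in other classes of the size seen in neutrophil-like cells are read here as background. These levels differed by sub-cluster. In LIP, neutrophil-like cells led by *Acod1* and *Ccl3* stood at 261 CPM and those led by *Ltf* and *Ngp* at 103 CPM. Their median UMIs per cell over both libraries were 3597 and 11304. Whether the pooled level suits classes of other depth was not tested.

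Collagen transcripts were 68825 of the control UMIs (0.513%) and 160683 of the LIP UMIs (1.52%). Osteoblast-like cells had the highest level, with 72599 CPM in control and 117659 CPM in LIP cells, followed by fibroblast-like cells with 31860 and 65409 CPM. In the control library the fibroblast-like class held 50.7% of all collagen UMIs and the osteoblast-like class 27.4%. In the LIP library their places were exchanged, at 20.9% and 62.6%, with 26 fibroblast-like cells in place of 101 and 31 osteoblast-like cells in place of 20. These shares move with the number of cells each library captured of a class and with their UMIs, whose median was 12931 in control and 25670 in LIP osteoblast-like cells.

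**Figure D1:**
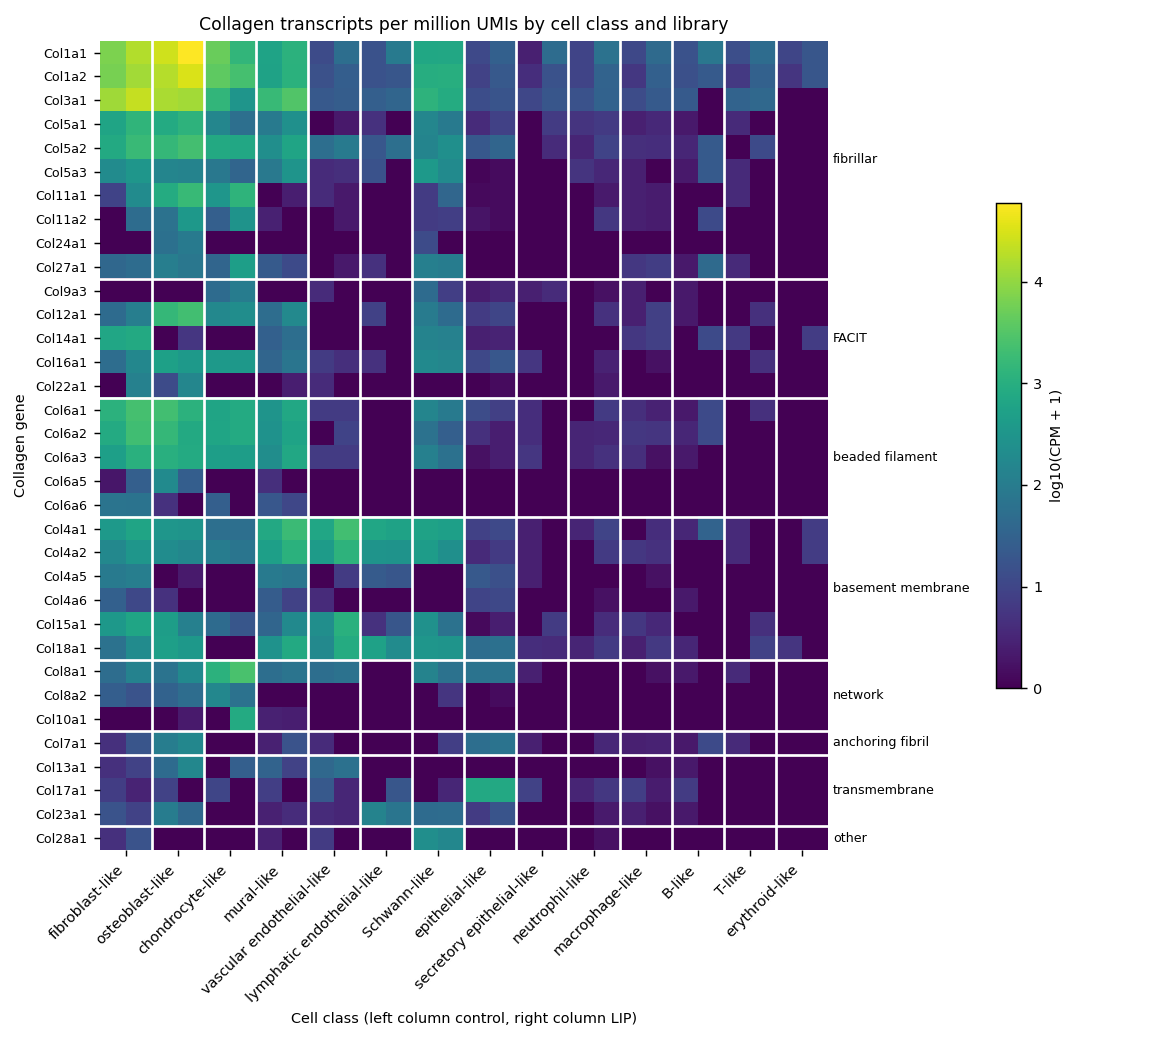
Heat map of the level (log10 of CPM plus 1) of the 34 collagen genes with at least 50 UMIs in both libraries together, by cell class, with control in the left and LIP in the right column of each class. *Col1a1*, *Col1a2* and *Col3a1* are highest in the osteoblast-like and fibroblast-like columns, *Col4a1* in the mural-like column in control (755 CPM) and in the vascular endothelial-like column in LIP (2169 CPM), and *Col17a1* in the epithelial-like columns.

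The classes below those levels each had a collagen set of its own. Chondrocyte-like cells (11 and 7 cells) stood at 15377 CPM in control and 13654 CPM in LIP, mural-like cells, the smooth muscle cells and pericytes of vessel walls (46 and 45), at 5979 and 12936 CPM, and Schwann-like cells (37 and 103) at 6608 and 5180 CPM. Vascular endothelial-like cells (VEC, 48 and 79) stood at 1739 CPM in control and 5675 CPM in LIP, and epithelial-like cells (224 and 112) at 1076 and 1152 CPM. Lymphatic endothelial-like cells (19 and 5) stood at 1793 and 1377 CPM. B-like, T-like, macrophage-like, neutrophil-like, erythroid-like and secretory epithelial-like cells were between 17.8 CPM (control erythroid-like) and 303 CPM (LIP B-like).

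Single cells within a class differed widely. The median osteoblast-like cell spent 4.89% of its UMIs on collagens in the control and 8.55% in the LIP library, with a highest value of 26.7%. The median fibroblast-like cell spent 2.30% and 5.44%, the median mural-like cell 0.344% and 0.754%, and the median VEC 0.127% and 0.349%. For Schwann-like cells the order was the other way, with 0.606% in control and 0.255% in LIP cells. The collagen level of the unnamed cells was 628 CPM in control and 12815 CPM in LIP. In the LIP library 5664 of these UMIs lay in 11 cells of a sub-cluster led by the cell-cycle genes *Hist1h2ap* and *Top2a*, of which 2 cells were above 1% and the highest at 9.53%, while none of its 39 control cells was above 1%.

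**Figure D2:**
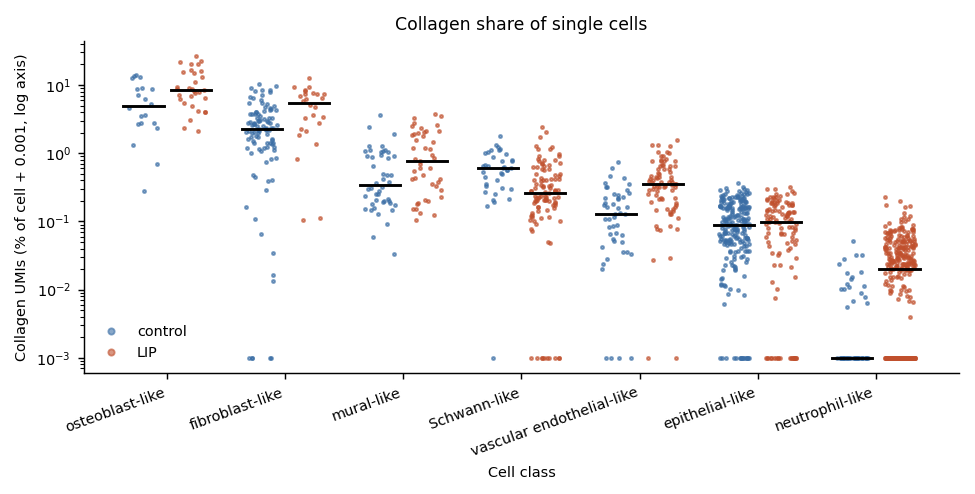
Share of each cell's UMIs that came from the 44 collagen genes (y axis, percent plus 0.001, log axis) for 7 classes, with 1 point per cell, control and LIP side by side and a bar at the median. The LIP medians are above the control medians for osteoblast-like (8.55% and 4.89%), fibroblast-like (5.44% and 2.30%), mural-like (0.754% and 0.344%) and VEC (0.349% and 0.127%), and below it for Schwann-like cells (0.255% and 0.606%).

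Fibroblast-like and osteoblast-like cells both carried the type I and III genes but differed in the accessory collagens, and this was compared within each library. A gene was counted as different only where it differed at least 2-fold in the same direction in both libraries. Of the 29 members that could be compared, 3 were higher in fibroblast-like and 10 in osteoblast-like cells, against 5.70% and 2.80% of the 6752 genes compared in all. The 3 on the fibroblast-like side were *Col14a1*, *Col4a5* and *Col6a6*. A member was compared where it had at least 50 UMIs over both classes and libraries. These 3 reached that minimum only through fibroblast-like cells, and *Col24a1*, *Col13a1*, *Col7a1*, *Col11a2* and *Col23a1* only through osteoblast-like cells. The counts therefore follow in part from the filter and are not read as a result, and the levels are given by gene. *Col14a1*, which coats fibrils of soft connective tissue, was at 665 CPM in control and 802 CPM in LIP fibroblast-like cells, and at 0 and 4.68 CPM in osteoblast-like cells. Its level was thus at least 57.5-fold higher in control fibroblast-like cells, with 3 counts set for the 0 count, and the log2 ratio in LIP was 7.42. *Col4a5* was at 90.4 and 111 CPM in fibroblast-like and at 0 and 1.17 CPM in osteoblast-like cells. *Col6a6*, a chain of type VI collagen, was at 66.6 and 64.2 CPM against 3.86 and 0 CPM.

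The 10 on the osteoblast-like side included both type I chains and both type XI chains. *Col1a1* was at 27509 CPM in control and 59986 CPM in LIP osteoblast-like cells and at 6966 and 17182 CPM in fibroblast-like cells, with log2 ratios of fibroblast-like over osteoblast-like of -1.98 and -1.80. *Col1a2* differed less, with -1.47 and -1.32. The minor fibrillar gene *Col11a1* was further apart in control than in LIP, with 871 and 1668 CPM in osteoblast-like against 8.21 and 199 CPM in fibroblast-like cells (-6.73 and -3.07). Its partner *Col11a2* was at 61.7 and 357 CPM in osteoblast-like cells and had no UMI in control fibroblast-like cells, but all 16 control UMIs lay in 1 cell. *Col24a1*, a fibrillar gene known from developing bone, had no UMI in fibroblast-like cells of either library and 57.8 and 88.9 CPM in osteoblast-like cells, at least 21.1-fold and 15.2-fold higher. Osteoblast-like cells held 88.2% of its control and 97.4% of its LIP UMIs.

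Among the FACIT collagens, type XII and type XIV split between the classes in opposite ways. *Col12a1*, which binds fibrils in tissues under tension such as ligament and periosteum, was at 1500 and 2151 CPM in osteoblast-like cells. It was at 45.6 and 109 CPM in fibroblast-like cells. Osteoblast-like cells held 71.2% of its control and 82.3% of its LIP UMIs. Fibroblast-like cells held 92.5% and 78.8% of the *Col14a1* UMIs. *Col16a1* was also higher in osteoblast-like cells, by -3.33 in the control and -1.17 in the LIP library on the log2 scale. The remaining members of the 10 were the transmembrane genes *Col13a1* (-3.66 and -4.40) and *Col23a1* (-2.69 and -2.31) and the anchoring-fibril gene *Col7a1* (-4.83 and -3.19), of whose LIP osteoblast-like UMIs 77.4% came from 1 cell. The other 16 members were less than 2-fold apart in at least 1 library or changed sides. Type III and type VI chains changed sides between the libraries, with log2 ratios of -0.29 in control and 0.82 in LIP for *Col3a1*, -0.85 and 1.03 for *Col6a1*, -0.85 and 1.31 for *Col6a2* and -1.07 and 0.38 for *Col6a3*.

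**Figure D3:**
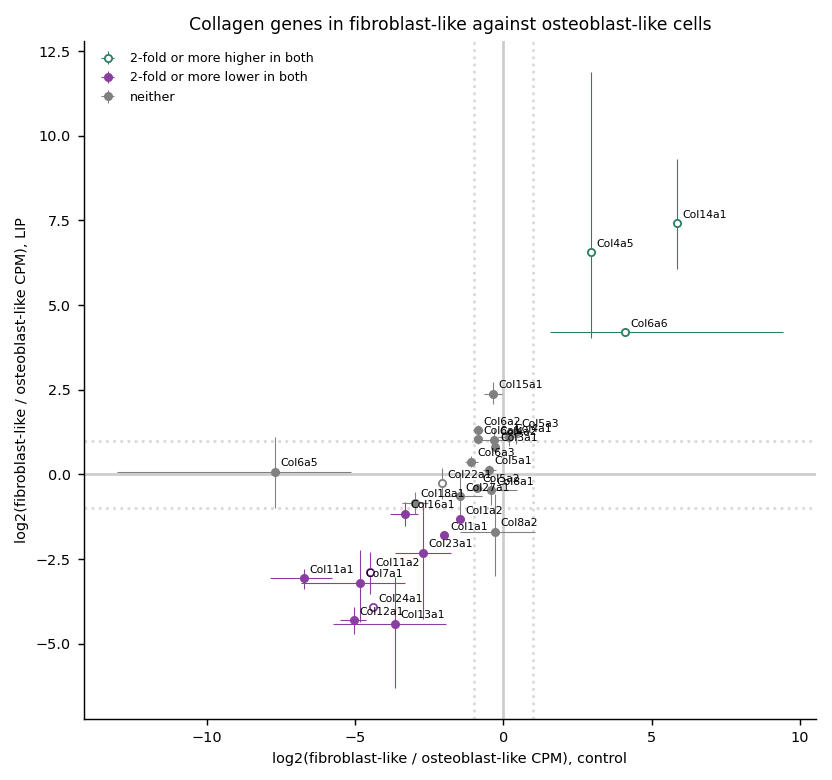
Log2 ratio of the level in fibroblast-like over osteoblast-like cells in the control (x axis) and LIP library (y axis) for the 29 members compared, with exact 95% counting intervals and open markers where a count of 0 was set to 3. *Col14a1*, *Col4a5* and *Col6a6* lie at the upper right, and 10 members, among them *Col11a1* (-6.73 and -3.07) and *Col12a1* (-5.04 and -4.30), at the lower left.

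The next comparison set LIP against control within a class, for classes with at least 20 cells in each library and genes with at least 50 UMIs in both libraries together. A gene was called where its level differed at least 2-fold. In fibroblast-like cells 12 of 22 members were higher in LIP and none was lower, against 3.32% higher and 6.61% lower among all 4884 genes compared. The median log2 ratio was 1.05 for the members and -0.07 for all genes, and 21 of the 22 were above 0. In mural-like cells 12 of 18 were higher and none lower (3.87% and 3.39% of 3750 genes), with medians of 1.24 and 0.05. The mural-like sub-clusters made up different shares of the class UMIs in the libraries, as given below. In VEC 5 of 8 were higher and none lower (5.32% and 3.11% of 4057 genes), with medians of 1.64 and 0.03. Osteoblast-like cells were mixed, with 5 of 26 higher and 3 lower (5.90% and 8.03% of 3087 genes), and Schwann-like cells had 0 of 16 higher and 2 lower (3.74% and 3.70% of 2083 genes). In epithelial-like cells 3 of 15 were higher and none lower (2.32% and 1.53% of 9393 genes). Members share cells within a library, so these counts are not independent observations of a condition. The minimum of 50 UMIs could also be met through LIP alone, as for *Col11a1* and *Col22a1* in fibroblast-like cells. Of the 5 higher members in osteoblast-like cells, only *Col1a1* had 50 UMIs in control as well. The counts of higher members therefore follow in part from the filter.

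**Figure D4:**
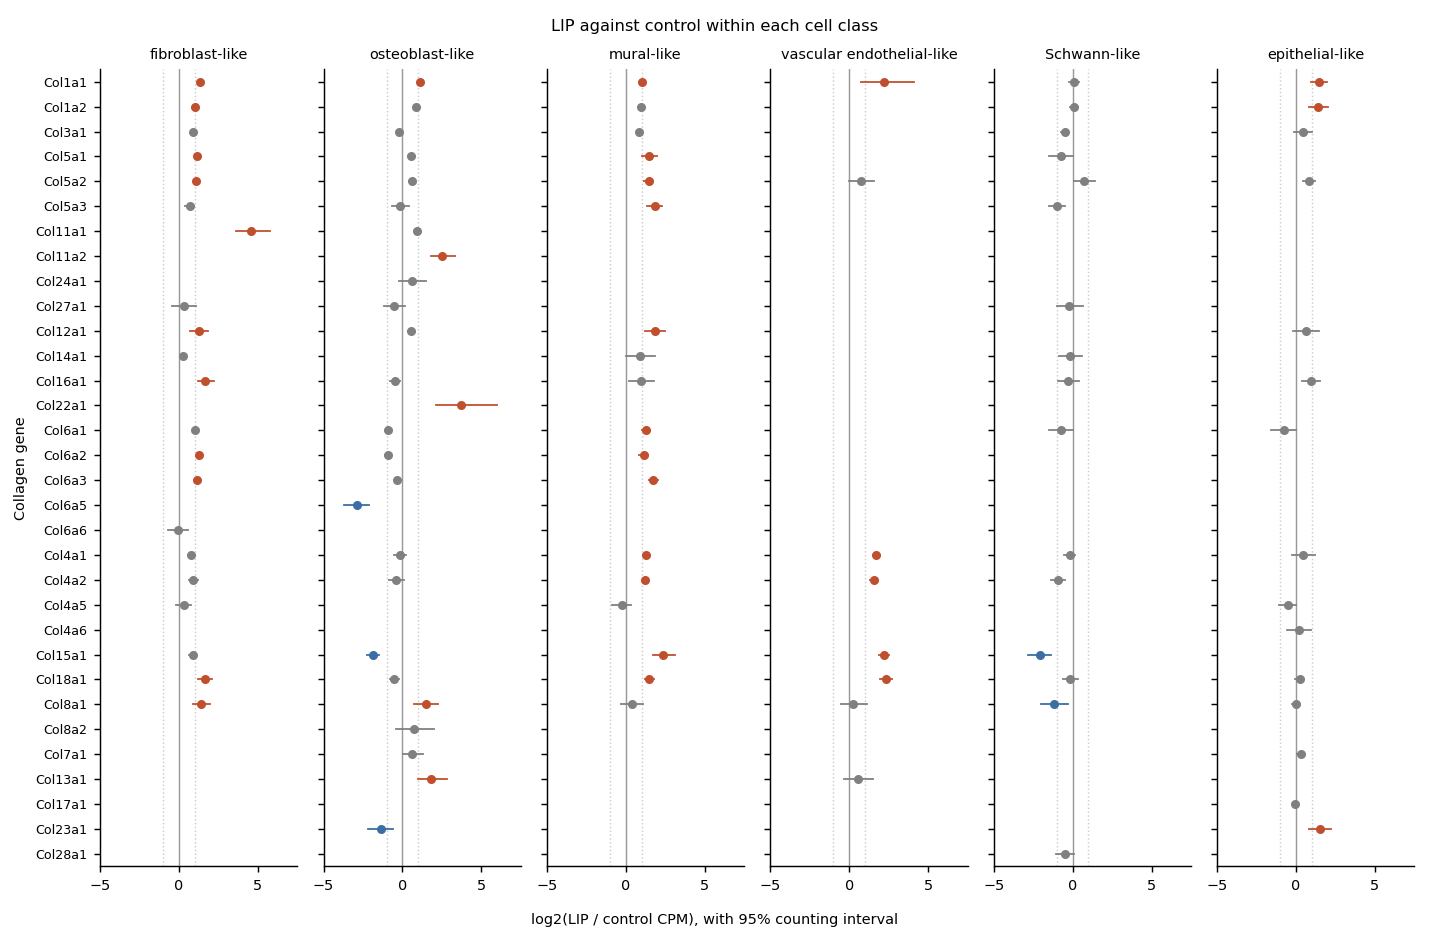
Log2 ratio of LIP over control (x axis) for each collagen gene compared within each of 6 classes, 1 point per gene with its exact 95% counting interval, ordered by structural group. *Col22a1* in fibroblast-like cells, at 0 in control, is not drawn. The ratio was above 0 for 21 of 22 members in fibroblast-like, 17 of 18 in mural-like and 8 of 8 in VEC, and for 13 of 26 in osteoblast-like cells.

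In fibroblast-like cells the summed level was higher in LIP in all 5 structural groups compared. In the network group, however, 38 of the 75 LIP UMIs were *Col8a1* UMIs of 1 cell. The fibrillar genes together stood at 27329.7 CPM in control and 56517 CPM in LIP (log2 ratio 1.05), the beaded-filament genes at 2585 and 5548 CPM (1.10), the basement membrane genes at 1071 and 1906 CPM (0.83), the FACIT genes at 765 and 1217 CPM (0.67) and the network genes at 74.8 and 146 CPM (0.96). *Col3a1* was the most abundant collagen transcript of the class in both libraries, with 12341 CPM in control and 22839 CPM in LIP, and was not called (0.89). *Col1a1* was at 6966 CPM in control and 17182 CPM in LIP (1.30, interval 1.26 to 1.35), so that it came closer to *Col3a1* in LIP. *Col1a2* stood at 6355 and 12777 CPM (1.01), just past the 2-fold line. The type V genes *Col5a1* (1.15) and *Col5a2* (1.10) moved together, while *Col5a3* went from 203 to 323 CPM (0.67). *Col11a1* went from 8.21 to 199 CPM (4.60, interval 3.61 to 5.76), and was found in 5 of 101 control and 11 of 26 LIP cells.

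The surface and pericellular collagens of fibroblast-like cells were less even. *Col16a1* went from 51.1 to 164 CPM (1.68) and *Col12a1* from 45.6 to 109 CPM (1.26), but *Col14a1*, the marked FACIT of this class, from 665 to 802 CPM (0.27). Type VI chains *Col6a2* (1.26) and *Col6a3* (1.12) were called, *Col6a1* lay on the line (1183 and 2365 CPM, 1.0, not called), and *Col6a6* was level at 66.6 and 64.2 CPM. *Col18a1* went from 63.0 to 197 CPM (1.64) and *Col8a1* from 49.3 to 130 CPM (1.40). However, 1 cell held 56.7% of the LIP *Col8a1* UMIs, and without the top cell of each library the log2 ratio was 0.52. *Col22a1* had no UMI in control and 65 in LIP, at least 46.2-fold higher, but these came from 2 cells. Of these 12 calls, *Col1a2* was lost in 5 of 16 alternatives (lowest 0.66), *Col5a2* and *Col6a3* in 4 each, *Col5a1* in 3, and *Col1a1* (0.93 at a mitochondrial limit of 5%), *Col12a1* and *Col8a1* in 1 each. The LIP class holds 26 cells, and whether its cells are the same kinds of fibroblast as in control was not tested.

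In osteoblast-like cells the structural groups went different ways. *Col1a1* stood at 27509 CPM in control and 59986 CPM in LIP (1.12, interval 1.09 to 1.16) and *Col1a2* at 17627 and 31888 CPM (0.86), but *Col3a1* at 15106 and 12918 CPM (-0.23). Per cell, *Col1a1* ranged from 686 to 81163 CPM around a median of 14220.2 in control and from 6429 to 196381 CPM around 32816 in LIP, so the libraries overlapped widely. The type VI genes were lower in LIP without being called, with *Col6a1* at 2132 and 1155 CPM (-0.88) and *Col6a2* at 1515 and 809 CPM (-0.90). The beaded-filament genes together went from 4885 to 2827 CPM (-0.79) and the basement membrane genes from 1481 to 925 CPM (-0.68), next to 63824 and 110621 CPM (0.79) for the fibrillar, 2028 and 2675 CPM (0.40) for the FACIT and 96.4 and 233 CPM (1.27) for the network genes. *Col11a1* (871 and 1668 CPM, 0.94), *Col5a2* (1488 and 2258 CPM, 0.60) and *Col12a1* (1500 and 2151 CPM, 0.52) were above 0 without being called. *Col15a1* was called lower, from 447 to 122 CPM (-1.88, interval -2.27 to -1.48).

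The other calls in osteoblast-like cells rested on fewer UMIs. *Col13a1*, a transmembrane collagen of cell junctions, went from 46.3 to 165 CPM (1.83) and from 4 of 20 to 20 of 31 cells. *Col22a1*, a FACIT of tissue junctions, went from 3 UMIs in 1 control cell to 130 UMIs in 13 LIP cells (11.6 and 152 CPM, 3.72), and *Col11a2* from 16 UMIs in 1 cell to 305 in 12 cells (61.7 and 357 CPM, 2.53). *Col8a1* went from 65.5 to 181 CPM (1.47), but stood at 0.35 with 15 dimensions. *Col23a1* was lower, at 100 CPM in control and 38.6 CPM in LIP (-1.38), with 61.5% of the control UMIs in 1 cell, and *Col6a5* was at 189 and 25.7 CPM (-2.88) with 3 cells in each library. Keeping cells above the upper limits of genes and UMIs ended 5 of the 8 calls, with *Col1a1* at 0.52, *Col11a2* at 0.04, *Col13a1* at 0.34, *Col22a1* at 0.56 and *Col23a1* at -0.60.

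Vessel walls carried the type IV and related genes, though not alone. In control, *Col15a1* was higher in osteoblast-like (447 CPM) and fibroblast-like cells (350 CPM) than in VEC, and *Col18a1* in osteoblast-like cells (497 CPM). In LIP both were highest in VEC among classes of at least 20 cells. Fibroblast-like *Col4a1* stood at 362 and 619 CPM. In vessel walls the LIP values were higher for the main chains in both cell layers. In VEC, *Col4a1* stood at 658 CPM in control and 2169 CPM in LIP (1.72, interval 1.52 to 1.93) and its neighbour *Col4a2* at 411 and 1207 CPM (1.55). The endostatin-bearing genes moved further, with *Col15a1* at 232 and 1063 CPM (2.20) and *Col18a1* at 177 and 882 CPM (2.32). The basement membrane genes together went from 1487 to 5327 CPM (1.84). *Col1a1* was the fifth call, but with 11.6 and 53.0 CPM it was no higher than in neutrophil-like cells of LIP, and it was at 0.20 after the neutrophil-like level was subtracted. Of the members not called, *Col5a2* was at 0.75, *Col13a1*, which VEC hold at 40.6 and 58.7 CPM, at 0.53 and *Col8a1* at 0.25.

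In mural-like cells *Col4a1* stood at 755 and 1819 CPM (1.27), *Col4a2* at 489 and 1125 CPM (1.20), *Col18a1* at 278 and 783 CPM (1.5) and *Col15a1* at 35.5 and 184 CPM (2.38). The interstitial collagens of these cells were higher too, with *Col6a3* at 218 and 735 CPM (1.75), *Col6a1* at 296 and 719 CPM (1.28) and *Col5a3* at a log2 ratio of 1.82. *Col1a1* went from 591 to 1188 CPM (1.01), with 34.2% of the LIP UMIs in 1 cell, and *Col3a1*, from 1685 to 2994 CPM (0.83), was not called. *Col4a5* was the member below 0, at 89.7 and 75 CPM. The *Col1a1* call was lost in 4 of 15 alternatives, among them subtraction of the neutrophil-like level (0.95) and leaving out the top cell of each library (0.89). With the mean of single-cell CPM the calls of *Col4a1* (0.79), *Col4a2* (0.89), *Col6a2* (0.83) and *Col12a1* (0.74) were lost as well.

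The vascular classes each held a pair of sub-clusters, and the collagens separated them. Among VEC, the cells led by *Selp* and *Plvap*, genes of venules and capillaries, had *Col4a1* at 708 CPM in control and 2477 CPM in LIP, *Col15a1* at 294 and 1365 CPM and *Col18a1* at 93.2 and 623 CPM. The 9 and 17 cells led by the arterial genes *Sema3g* and *Gja5* had *Col4a1* at 482 and 1113 CPM, but *Col15a1* at 13 and 25.5 CPM and *Col18a1* at 469 and 1771 CPM. *Col15a1* was thus higher in the first and *Col18a1* in the second in both libraries, with 1 and 5 UMIs of *Col15a1* in the second. Among mural-like cells, those led by the pericyte gene *Rgs5* (19 and 22 cells) went from 1143 to 2959.7 CPM for *Col4a1* and from 105 to 958 CPM for *Col18a1*, and *Col15a1*, at 0 in control, reached 377 CPM. Those led by the smooth muscle gene *Myh11* (27 and 23 cells) went from 583 to 814 CPM for *Col4a1* and from 354 to 629 CPM for *Col18a1*, and *Col15a1* was at 51.2 and 14.7 CPM. All collagens together stood at 11909.8 and 22519.7 CPM in the *Rgs5* cells and at 3358 and 4492 CPM in the *Myh11* cells. The *Rgs5* cells held 181111 of 590932 mural-like UMIs in control and 299693 of 639846 in LIP. Class values therefore also move with this make-up. In the *Myh11* cells 9 of 11 members were above 0, but 1 was called higher and none lower (66 and 50 of 2281 genes). Their median log2 ratio was 0.48, against 0.06 for all genes. The *Rgs5* cells were under 20 in control and were not compared in this way.

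**Figure D5:**
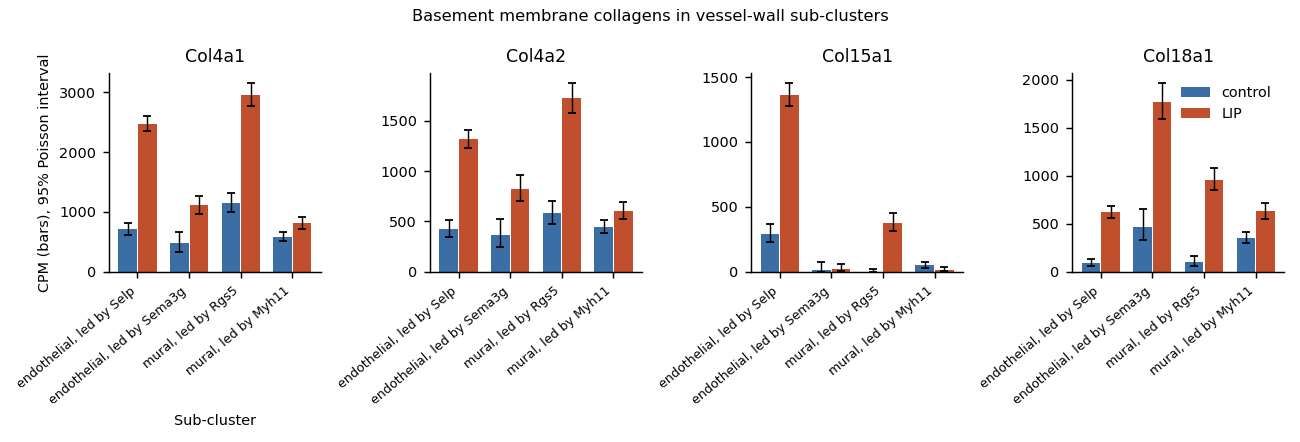
Level (CPM, bars from 0 on a linear axis, with exact 95% Poisson intervals) of *Col4a1*, *Col4a2*, *Col15a1* and *Col18a1* in control and LIP cells of the 2 VEC sub-clusters, named by *Selp* and *Sema3g*, and the 2 mural-like ones, named by *Rgs5* and *Myh11*. *Col4a1* is higher in LIP in each of them, *Col15a1* is highest in the *Selp* sub-cluster (1365 CPM in LIP) and *Col18a1* in the *Sema3g* sub-cluster (1771 CPM in LIP).

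In Schwann-like cells, the glia of peripheral nerves, most collagens were lower in LIP when the class was taken as a whole, with 3 of 16 members above 0 and a median log2 ratio of -0.38 against 0.04 for all genes. *Col15a1* was at 259 CPM in control and 61.3 CPM in LIP (-2.08) and *Col8a1* at 138 and 61.3 CPM (-1.17), and 1 cell held 60.0% and 79.2% of their control UMIs. In LIP 1 cell held 51.9% of the *Col8a1* UMIs. Without the top cell of each library *Col8a1* stood at 0.02, so that call rests on single cells. *Col5a3* (373 and 188 CPM, -0.99) and *Col4a2* (442 and 236 CPM, -0.91) were lower without being called. *Col28a1*, a collagen of peripheral nerve, stood at 230 and 163 CPM, and 85.1% of its control and 87.8% of its LIP UMIs lay in this class.

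The Schwann-like class was not of the same make-up in both libraries. One sub-cluster, led by *Scn7a*, *Gfra3* and *Cdh19*, had 20 control and 28 LIP cells and 8707 and 9491 CPM of collagen, and 8 of its 15 members compared were above 0, so the lower level of the whole class was not seen within it. A sub-cluster of low depth had 24 cells, all from LIP, and 1229 CPM. Within the *Scn7a* sub-cluster *Col28a1* stood at 217 and 332 CPM, *Col3a1* at 1954 and 1949 CPM, and *Col1a1* at 706 and 1495 CPM (1.08). *Col15a1* (467 and 87.3 CPM, -2.42) and *Col5a3* (619 and 268 CPM, -1.21) were lower in LIP within these cells. The control cell that held most *Col15a1* UMIs of the whole class lies among them. The *Col15a1* ratio of the sub-cluster without that cell was not computed.

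Epithelial-like cells had a collagen set of their own, and its leading genes stood at similar levels in both libraries. *Col17a1* was its main member, with 775 CPM in control (interval 753 to 797) and 753 CPM in LIP (719 to 787), a log2 ratio of -0.04, and the class held 89.2% and 95% of its UMIs. It was highest in the basal sub-cluster led with *Trp63* (1292 and 1141 CPM) and lowest in the suprabasal one with *Krt13* and *Krt4* (407 and 406 CPM). Hemidesmosomes lie on the basal layer. *Col7a1* was at 53.3 and 66.0 CPM, *Col8a1* at 64.2 and 64.5 CPM and *Col18a1* at 49.1 and 57.9 CPM. Of the 3 calls, *Col1a1* (10.2 and 28.4 CPM) and *Col1a2* (7.78 and 20.6 CPM) were below the LIP neutrophil-like level of *Col1a1*. Subtracting the neutrophil-like CPM left no *Col1a1* in LIP, though epithelial-like cells there were deeper (median 23928.5 UMIs against 3857.5 in neutrophil-like cells). The log2 ratio of -0.49 after subtraction has 3 counts set in that place and is not a measured ratio. The other call was *Col23a1*, a transmembrane collagen, at 5.84 and 16.7 CPM (1.52). The count of members higher in LIP became 15 with 15 dimensions, 13 when the libraries were merged without integration, 14 at a mitochondrial limit of 5% and 5 without the barcodes Scrublet marked.

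Immune classes held few members that could be compared. In neutrophil-like cells 3 of 3 were higher in LIP (12.3% and 3.07% of 3194 genes higher and lower), and in macrophage-like cells 1 of 1, *Col1a1* at 10.1 and 44.2 CPM (8.20% and 3.69% of 5010 genes). The 3 were *Col1a1*, *Col1a2* and *Col3a1*, with 4, 4 and 7 UMIs in control and 100, 52 and 51 in LIP. Macrophage-like *Col1a1* had 69 UMIs in LIP. All reached the minimum of 50 UMIs only through LIP, so these counts largely follow from the filter and are not read as a result. No member reached 50 UMIs in T-like cells (8.46% and 5.27% of 1784 genes). The macrophage-like value lay below that of LIP neutrophil-like cells (61.7 CPM). The cause of the higher neutrophil-like level in LIP was not tested.

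Some members were spread over several classes. *Col27a1*, a fibrillar gene, was at 39.2 and 48.7 CPM in fibroblast-like, 108 and 76 CPM in osteoblast-like and 115 and 99.8 CPM in Schwann-like cells. The minor type IV gene *Col4a5* had 41.7% of its control UMIs in epithelial-like cells at 20.3 CPM, but its level was higher in fibroblast-like and mural-like cells, and *Col4a6* had 46.8% of its control and 69.4% of its LIP UMIs in epithelial-like cells, at 8.43 and 9.71 CPM. *Col8a2*, partner of *Col8a1*, had 50.9% of its control UMIs in fibroblast-like and 70.5% of its LIP UMIs in osteoblast-like cells. Its level was 162 CPM in control (9 of 11 cells) and 62.7 CPM in LIP (7 UMIs) in chondrocyte-like cells. It was 30.8 and 50.3 CPM in osteoblast-like and 25.6 and 15.6 CPM in fibroblast-like cells. *Col9a3* had 30 and 25 UMIs, of which chondrocyte-like cells held 16.7% and 44%.

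Genes known from cartilage had few UMIs. *Col2a1*, the fibrillar gene of cartilage, had 5 UMIs in control and 38 in LIP, of which 16 lay in chondrocyte-like and 14 in osteoblast-like cells. All 5 control and 13 LIP UMIs of *Col9a1* lay in chondrocyte-like cells. *Col10a1*, known from hypertrophic cartilage, had 1 UMI in control and 93 in LIP, of which 91 came from 2 of the 7 chondrocyte-like cells. The network collagen *Col8a1* was at 1150 CPM in control and 2589 CPM in LIP chondrocyte-like cells, found in 9 of 11 and 7 of 7 cells, and at no more than 181 CPM in the classes compared above. With under 20 cells in each library this class was not compared between LIP and control.

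With those, 10 members stayed under 50 UMIs over both libraries, namely *Col2a1*, *Col4a3*, *Col4a4*, *Col6a4*, *Col9a1*, *Col9a2*, *Col19a1*, *Col20a1*, *Col25a1* and *Col26a1*. *Col20a1* had 6 of 12 control and 9 of 10 LIP UMIs in Schwann-like cells. *Col25a1* had 7 of 9 and 13 of 22 in osteoblast-like cells, but all 7 control UMIs came from 1 cell. In LIP it stood at 15.2 CPM in osteoblast-like cells (6 of 31 cells) and at 62.7 CPM in chondrocyte-like cells (4 of 7 cells). *Col4a3*, *Col19a1* and *Col6a4* had 4, 3 and 11 UMIs in all, too few to place. At this depth such values cannot show a difference between classes or libraries.

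The chains of a trimer were next set against each other. Type I collagen is built mostly from a pair of chains of *Col1a1* and a single chain of *Col1a2*, and the transcripts of *Col1a1* per *Col1a2* were 1.56 (1.5 to 1.62) in control and 1.88 (1.85 to 1.91) in LIP osteoblast-like cells. In fibroblast-like cells they were 1.10 (1.06 to 1.13) and 1.34 (1.30 to 1.39). In mural-like cells they were 1.02 (0.88 to 1.19) and 1.07 (0.97 to 1.19), and in Schwann-like cells 0.733 (0.58 to 0.93) and 0.725 (0.63 to 0.84). The values of these classes had the same order in both libraries, but the control mural-like interval took in the fibroblast-like value. Chondrocyte-like cells did not keep a place, at 1.22 (1.08 to 1.39) in control and 0.584 (0.475 to 0.716) in LIP. The order did not hold for every sub-cluster. Schwann-like cells led by *Scn7a* were at 0.75 in control and 1.06 (0.88 to 1.27) in LIP. Mural-like cells led by *Myh11* were at 0.92 in control and 0.66 (0.51 to 0.86) in LIP. *Col4a1* per *Col4a2*, which share a promoter region, was 1.6 and 1.8 in VEC and 1.54 and 1.62 in mural-like cells. *Col6a3* per *Col6a1*, chains of the same type VI trimer, was 0.421 and 0.457 in fibroblast-like, 0.490 and 0.721 in osteoblast-like and 0.737 and 1.02 in mural-like cells.

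Over single cells of a class, the type I genes ranked cells alike, as a description over cells that share a library and depth. Spearman's rho of *Col1a1* with *Col1a2* was 0.90 in control and 0.95 in LIP fibroblast-like cells (101 and 26 cells) and 0.97 and 0.93 in osteoblast-like cells (20 and 31 cells). For *Col1a1* with *Col3a1* it was 0.79 and 0.59 in fibroblast-like cells, but 0.55 and 0.05 in osteoblast-like cells. Type I and type III transcripts thus ran together over fibroblast-like cells of both libraries and not over LIP osteoblast-like cells. For *Col4a1* with *Col4a2* it was 0.69 and 0.76 in VEC and 0.53 and 0.91 in mural-like cells. *Col6a1* with *Col6a2* stood at 0.69 and 0.93 in fibroblast-like and 0.95 and 0.92 in osteoblast-like cells. *Col5a1* with *Col5a2* stood at 0.75 and 0.85 in fibroblast-like and 0.72 and 0.58 in osteoblast-like cells. The values differed between pairs and, for some pairs, between libraries. The pairs also differed in UMIs and in number of cells, so the values are not read as a difference between trimers.

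As for the share of cells with a *Col1a1* UMI, it was 87.1% of control and 100% of LIP fibroblast-like cells and 100% of osteoblast-like cells of both libraries, against 5.77% and 26.5% of neutrophil-like cells. After thinning each cell to 1000 UMIs it was 78.8% of 99 and 88.5% of 26 fibroblast-like cells, 100% of 20 and 31 osteoblast-like cells, 23.9% of 46 and 46.7% of 45 mural-like cells, and 1.92% of 52 and 7.05% of 312 neutrophil-like cells. At equal depth *Col1a1* was thus found in all osteoblast-like cells, in most fibroblast-like cells and in a part of the mural-like cells.

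The genes that fold, trim and cross-link collagen chains were taken from lists. Of the 19 genes for hydroxylation and folding, 4 of 15 compared were higher in LIP in fibroblast-like cells, 3 of 8 in VEC, 1 of 16 in osteoblast-like and 1 of 11 in mural-like cells, and none was lower, beside 3.32%, 5.32%, 5.90% and 3.87% higher among all genes of these classes, so the count in osteoblast-like cells is near the background and that in mural-like cells is a single gene. None of 14 was called in epithelial-like and none of 5 in Schwann-like cells. *Fkbp10*, a prolyl isomerase needed for type I collagen cross-linking, was called in all 4 of those classes, with 85.8 and 195 CPM in fibroblast-like and 162 and 399 CPM in osteoblast-like cells. *Plod1*, a lysyl hydroxylase, went from 45.6 to 140 CPM in fibroblast-like cells. *Serpinh1*, the collagen chaperone HSP47, named here after its values were seen, was just short of a call in all of them, with log2 ratios of 0.85 in fibroblast-like, 1.0 in osteoblast-like (1685 and 3362 CPM), 0.97 in mural-like and 0.97 in VEC.

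The other lists had few genes in any class, and their counts are read against the same shares of all genes. Of the 7 genes of collagen transport none was called in fibroblast-like (7 compared), osteoblast-like (7), mural-like (6) or VEC (4). Of the 8 genes of propeptide removal, the C-proteinase gene *Bmp1* was higher in fibroblast-like (1.01), osteoblast-like (1.49) and mural-like cells (1.15), and its enhancer gene *Pcolce2* was lower in fibroblast-like cells, at 498 and 123 CPM (-2.02). Among 5 cross-linking genes, *Loxl3* was higher in fibroblast-like (1.04) and *Loxl1* in mural-like cells (1.10), and none of 4 was called in osteoblast-like cells. Among 10 collagen receptors, the uptake receptor gene *Mrc2* was higher in fibroblast-like cells (1.06) and *Itga11* lower in osteoblast-like cells (-1.16). In mural-like cells the N-proteinase gene *Adamts2* was also higher, at 115 and 344 CPM (1.58).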

How the data were processed

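Periodontal cells of the 2 libraries were captured with the 10x Genomics Single-cell 3′ chemistry (v.3), and alignment and counting against mm10 were done by the authors in Cell Ranger (3.0 in the methods, 3.1.0 in the file headers and the submitters' processing notes). The deposited matrices hold raw UMI counts of 31053 genes per barcode, not normalized, and the raw counts were used for every value. Barcodes with 200 to 7500 genes, at most 60000 UMIs and at most 10% mitochondrial UMIs were kept, following the study. Kept cells were 75.5% of 1169 control and 77.2% of 1212 LIP barcodes. Both libraries were integrated in Seurat 5.3.0 (R 4.3.3) on 2000 variable features and 30 dimensions, without the 44 collagen genes, and clustered at a resolution of 0.1, then within clusters at 0.2. A cluster took the name of the marker list with the most genes among its 10 leading genes and needed 3 detected markers in all. A detected marker was found in at least 25% of the cluster's cells and at least 2-fold over the rest with 10 CPM added. A cluster of low depth for its library with no listed marker among its 10 leading genes stayed unnamed. This held for a sub-cluster of 12 control and 42 LIP cells with 4 detected markers. Scrublet (scanpy 1.11.5) marked 4 control and 1 LIP barcodes as doublets, which stayed in. That is under 0.5% of the cells of each library, so doublets were in effect not removed.

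UMIs were summed per class and library in Python 3.11.15 (numpy 2.4.6, scipy 1.17.1, pandas 2.3.3, plots with matplotlib 3.10.9). Intervals are exact at 95% (Poisson for levels, Clopper-Pearson for shares, conditional for ratios). With 1 library a group no p-value was computed, and a 2-fold difference was used as a call. A count of 0 was set to 3 counts for a lower bound of a fold. Values are given for members with at least 50 UMIs over both libraries, for LIP against control with at least 50 in the class, and of the other collagen genes lists at most the 3 highest and 3 lowest per class are named. The collagen members, lists and comparisons were chosen with earlier results of these data known, and the ratio of *Col3a1* to *Col1a1* was added after seeing the data. The scripts were tested on simulated data. Gene positions are from GENCODE M21 (GRCm38). One sub-cluster of the Schwann-like class is not reported here by itself.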

Additional observations from a re-analysis of the deposited data

Results flagged for a closer look

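*Col15a1*, a basement membrane collagen, was called in opposite directions in different classes, with log2 ratios of LIP over control of 2.20 in VEC and 2.38 in mural-like cells, and of -1.88 in osteoblast-like and -2.08 in Schwann-like cells. Within the mural-like class it was higher in LIP in the *Rgs5* cells and lower in the *Myh11* cells. In Schwann-like cells a single control cell held most of the *Col15a1* UMIs, and the ratio ran from -2.15 to -1.01 over 15 alternatives. *Col8a1* was at 1.40 in fibroblast-like and 1.47 in osteoblast-like cells and at -1.17 in Schwann-like cells. In the last of these 1 control cell held 79.2% of the UMIs. Each of these *Col8a1* calls was lost in 1 alternative. Without the top cell of each library the ratio was 0.52 in fibroblast-like and 0.02 in Schwann-like cells. With 15 dimensions it was 0.35 in osteoblast-like cells. *Col23a1* was at 1.52 in epithelial-like and -1.38 in osteoblast-like cells. The osteoblast-like call was lost without the top cell of each library and with no upper limit on genes or UMIs. With 1 library a condition, the difference between classes was not tested for any of these genes.

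Barcodes that had at least 200 genes but failed another limit also held collagen UMIs, at 10949 CPM in 203 LIP barcodes and 6665 CPM in 125 control barcodes. These were outside every comparison above.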

How the results depend on the processing

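Under the 12 alternatives, the members 2-fold higher in fibroblast-like than osteoblast-like cells numbered 3 each time and those lower 8 to 11. The call was lost in 3 alternatives for *Col16a1* and in 1 each for *Col11a2*, *Col1a2* and *Col23a1*, and in none for the other 9. Of the 42 calls of LIP against control, 20 were kept under every alternative chosen at the outset (7 of 12 in mural-like, 5 of 12 in fibroblast-like, 4 of 5 in VEC, 2 of 8 in osteoblast-like, 1 of 3 in epithelial-like and 1 of 2 in Schwann-like cells). Levels moved beyond their counting intervals as follows, and the cause was not tested. The summed level (CPM) of control fibroblast-like cells became 35726 with 15 dimensions, 37074 with a 5% mitochondrial limit, 35894 with no upper limit on genes or UMIs, 36402 with removal of Scrublet-marked barcodes, 27886 with the mean of single-cell CPM, 32908 with collagen UMIs left out of the total, 31102 with median-ratio scaling, 30363 with the top cell left out. The summed level (CPM) of LIP fibroblast-like cells became 74691 with 15 dimensions, 68592 with merging without integration, 60768 with a 5% mitochondrial limit, 67345 with removal of Scrublet-marked barcodes, 51857 with the mean of single-cell CPM, 69987 with collagen UMIs left out of the total, 67002 with median-ratio scaling, 59552 with the top cell left out. The summed level (CPM) of control osteoblast-like cells became 52219 with 15 dimensions, 89879.8 with no upper limit on genes or UMIs, 70224 with removal of shared barcodes, 61379 with the mean of single-cell CPM, 78282 with collagen UMIs left out of the total, 70666 with median-ratio scaling, 60858 with the top cell left out. The summed level (CPM) of LIP osteoblast-like cells became 101694 with 15 dimensions, 111542 with no upper limit on genes or UMIs, 104315 with the mean of single-cell CPM, 133349 with collagen UMIs left out of the total, 120876 with median-ratio scaling, 103742 with the top cell left out. The share (%) of collagen UMIs in control fibroblast-like cells became 49.8 with 15 dimensions, 57.2 with a 5% mitochondrial limit, 42.9 with no upper limit on genes or UMIs, 50.3 with removal of shared barcodes, 53 with the top cell left out. The share (%) of collagen UMIs in LIP fibroblast-like cells became 23.7 with 15 dimensions, 19.4 with merging without integration, 23.8 with a 5% mitochondrial limit, 17.6 with no upper limit on genes or UMIs, 23.1 with the top cell left out. The share (%) of collagen UMIs in control osteoblast-like cells became 30.8 with 15 dimensions, 37.6 with no upper limit on genes or UMIs, 27.9 with removal of shared barcodes, 24 with the top cell left out. The share (%) of collagen UMIs in LIP osteoblast-like cells became 60.7 with 15 dimensions, 66.6 with merging without integration, 64.4 with a 5% mitochondrial limit, 64.5 with no upper limit on genes or UMIs, 59.1 with the top cell left out.

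Counts of members 2-fold higher in LIP became 19 in fibroblast-like cells (at least 1 UMI in each library in place of the minimum), 9, 2 and 8 in osteoblast-like cells (15 dimensions, no upper limit, mean of single-cell CPM), 12 in VEC (no upper limit), 1 in Schwann-like cells (at least 1 UMI) and, in epithelial-like cells, 15, 13 and 14 (15 dimensions, merging, 5% mitochondrial limit), 5 (Scrublet), 1 (neutrophil-like level subtracted) and 7 (at least 1 UMI). Counts lower in LIP became 1 and 2 in fibroblast-like, 2 and 3 in mural-like, 5 and 8 in Schwann-like and 1 and 2 in epithelial-like cells with a minimum of 20 UMIs and of 1 UMI in each library, 2 in VEC with the latter, 7 in Schwann-like and 1 in epithelial-like cells for the mean of single-cell CPM, 1 in both with the top cell left out, and 2 in epithelial-like cells after subtraction. Direction turned for *Col8a1* in Schwann-like cells (0.018 without its top cell in each library) and for *Col1a1* in epithelial-like cells (-0.49 after subtraction). The latter value has 3 counts set for LIP, where subtraction left no *Col1a1*, so it shows no measured reversal. Leaving out the Schwann-like sub-cluster found in LIP alone, an alternative chosen after seeing the data, changed no count. The comparison was not made where a class fell under 20 cells, as for mural-like, Schwann-like and osteoblast-like cells at the 5% limit and osteoblast-like cells after merging. No paired analysis was possible because each condition is 1 library and the labels give no replicate numbers. With 26 LIP fibroblast-like and 20 control osteoblast-like cells, single cells set several values, and members under 50 UMIs could not be compared.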

Other observations

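Lymphatic endothelial-like cells, too few in LIP for a comparison (19 control and 5 LIP cells), carried a basement membrane set without the *Col15a1* of VEC. *Col4a1* was at 680 CPM in control (found in 18 of 19 cells), *Col18a1* at 547 CPM and *Col4a2* at 294 CPM. The transmembrane collagen *Col23a1* was found in 12 of the 19 cells, at 136 CPM, and this class held 26.1% of its control UMIs, next to 26.1% in the far more numerous epithelial-like cells.

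In chondrocyte-like cells the type I genes led in control, with *Col1a1* at 4751 CPM and *Col1a2* at 3880 CPM. In LIP these stood at 1371 and 2347 CPM, and *Col11a1* at 323 CPM in control and 1254 CPM in LIP. With 11 and 7 cells, these are values of single cells and no comparison was made.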
